A study of Homo sapiens with 30 samples.

Results

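The 10 genes described here encode antigens of the cell surface. NT5E (CD73), ENG (CD105), THY1 (CD90) and CD44 mark mesenchymal stromal cells, L1CAM, NCAM1 (CD56), ALCAM (CD166) and MCAM (CD146) are adhesion molecules of the immunoglobulin superfamily, CD24 is a small mucin-like glycoprotein, and CD99 is the antigen stained in the diagnosis of Ewing sarcoma. They were taken by symbol from the deposited count table, where they are 10 of 33538 genes. The list was drawn up with earlier results of these data known, so counts of its members are descriptions. All 10 were among the 16713 genes that passed the filter on low counts. Poly(A) RNA had been sequenced from A673, CHLA10 and TC32, established lines of Ewing sarcoma, a tumour of bone and soft tissue, and all carry the genotype label EWS::FLI1 and the batch label 1. Each line received 5 nM BMS-986158, a small-molecule inhibitor of BET proteins, or its solvent DMSO (vehicle) for 72 hours, labelled 3 days, and CHLA10 and A673 also for 20 days with the inhibitor given continuously. There were 10 groups of 3 libraries. The labels do not state for how long the 20-day vehicle groups had been given vehicle. A673 and TC32 shared RPMI medium and CHLA10 was kept in IMDM with more serum, so that for CHLA10 line and medium cannot be told apart. The labels do not say whether the libraries of a group came from separate cultures. The p-values therefore measure the spread among these libraries only, and that spread may be technical.

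As background, EWS::FLI1 joins part of EWSR1 to the DNA-binding part of the ETS factor FLI1, activates genes through repeats of the motif GGAA and represses part of a mesenchymal programme. Ewing sarcoma cells can differ in the activity of the fusion, and surface NT5E has been used to mark cells in a mesenchymal-like state of low fusion activity. BET proteins bind acetylated histones at promoters and enhancers and help recruit the transcription machinery. The antigens described here take part in adenosine production (NT5E), hyaluronan binding (CD44), reception of TGF-beta family ligands (ENG) and contacts between cells (L1CAM, NCAM1, ALCAM, MCAM). NT5E, THY1, CD24 and the shortest NCAM1 form are held in the membrane by a glycosylphosphatidylinositol (GPI) anchor.

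Gene positions are those of GENCODE 29 on GRCh38. The libraries held between 16.1 and 48.9 M counts (M, mega). The 4 libraries farthest from the other libraries of their group over all genes were replicate 3 of A673 BMS-986158 at 20 days, replicate 3 of A673 vehicle at 3 days and replicate 3 of both CHLA10 groups at 20 days. A fit without these 4 libraries was added after seeing the data, and its values are given where it changed a call or moved a called value by over 1.5 times. None of the 4 was from CHLA10 or TC32 at 3 days. All groups share 1 estimate of the spread, so this fit can add calls there while the log2 changes stay much the same. All 10 genes of a list of Ewing sarcoma identity (CD99 among them) were detected in every group, although NKX2-2, a homeobox target of the fusion, was near 0 in CHLA10 (1.20 CPM in vehicle and 0.290 CPM under BMS-986158 at 3 days; CPM is counts per mega of counts). Of the markers of other cell types, CD3D and CD3E were at 0 in every group, and the summed level of 9 leukocyte genes was between 0.755 and 26.2 CPM in each library. The sum of 5 endothelial genes was between 0.0533 and 10.5 CPM. That of 5 epithelial genes was not low in A673, at 115 to 168 CPM in vehicle at 3 days. It was 6.77 to 8.13 CPM in CHLA10 and 0.533 to 1.085 CPM in TC32 vehicle at 3 days.

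Under vehicle at 3 days CD99 had the highest level of the 10 genes per length in each line. On the scale of CPM per kilobase of exon it stood at 235 ± 4.06 in CHLA10, 87.4 ± 9.98 in A673 and 613 ± 45.6 in TC32 (mean ± SD, n = 3). The order below CD99 differed by line. In CHLA10 it was followed by CD24 at 44.4, ALCAM at 30.5, THY1 at 27.7 and MCAM at 24.8, in A673 by THY1 at 14.5, ALCAM at 10.96 and ENG at 9.41, and in TC32 by THY1 at 109, MCAM at 28.2 and ENG at 21.4 CPM per kilobase. CD44 was lowest per length in CHLA10 (0.0424) and A673 (0.577), and L1CAM was lowest in TC32 (0.0342).

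**Figure D1:**
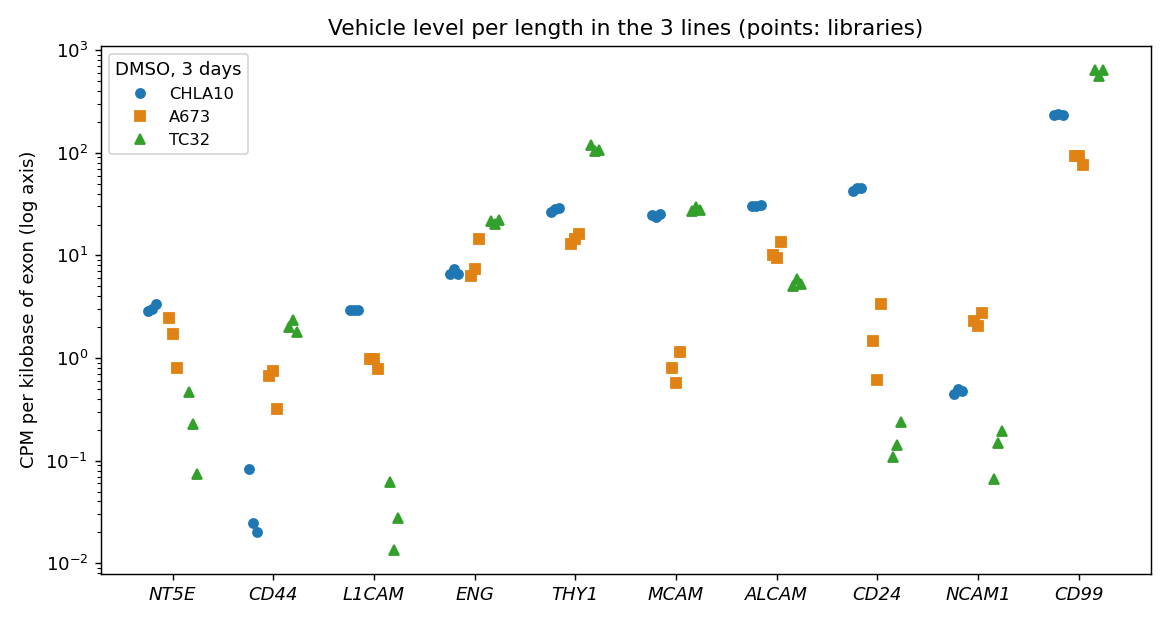
Vehicle libraries at 3 days. The y axis is the level per length in CPM per kilobase of exon on a log scale, and each point is 1 library of CHLA10, A673 or TC32. CD99 lies above the other 9 genes in every line, while the place of CD24, MCAM, CD44, L1CAM and NT5E depends on the line.

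Between the lines most of these genes differed under vehicle. Against CHLA10, 2 of the 10 were higher and 6 lower in A673 at an adjusted p under 0.05 by edgeR's quasi-likelihood test with Benjamini-Hochberg adjustment over all genes tested, beside 61.2% of all genes called in either direction. In TC32 against CHLA10, 4 were higher and 5 lower (61.1% of all genes), and in TC32 against A673, which shared a medium, 5 were higher and 5 lower (66.6%), so the share of members called was close to that of all genes or above it. MCAM, an adhesion molecule of endothelium and pericytes, was at 184, 177 and 190.1 CPM in CHLA10, at 5.89, 4.29 and 8.49 CPM in A673 and at 202, 221 and 206 CPM in TC32. A673 was low and the other lines high with no overlap, and the log2 difference was -4.87 (adjusted p = 4.25e-10) for A673 against CHLA10 and 5.06 for TC32 against A673. CD24 was at 132, 141 and 139 CPM in CHLA10, at 4.54, 1.87 and 10.5 CPM in A673 and at 0.335, 0.444 and 0.732 CPM in TC32, and the 3 lines did not overlap. Its log2 difference was -4.58 for A673 against CHLA10, -8.11 for TC32 against CHLA10 and -3.54 for TC32 against A673. Without replicate 3 of A673 vehicle, the difference of A673 from CHLA10 was -5.48 and that of TC32 from A673 was -2.63. CD99 was lower in A673 than in CHLA10 by a log2 difference of -1.43 and higher in TC32 by 1.38.

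For the other members, A673 was higher than CHLA10 in CD44 (3.80) and NCAM1 (2.31) and lower in L1CAM (-1.69), ALCAM (-1.48) and THY1 (-0.93), while NT5E (-0.91) and ENG (0.47) did not pass the test. TC32 was higher than CHLA10 in CD44 (5.64), THY1 (1.98) and ENG (1.65) and lower in L1CAM (-6.41), NT5E (-3.54), ALCAM (-2.50) and NCAM1 (-1.83), and MCAM (0.19) did not pass. TC32 was higher than A673 in THY1 (2.91), CD99 (2.81), CD44 (1.84) and ENG (1.18) and lower in L1CAM (-4.73), NCAM1 (-4.14), NT5E (-2.63) and ALCAM (-1.03). Without replicate 1 of CHLA10 vehicle CD44 was at 4.63 in A673 and 6.47 in TC32 against CHLA10. Without replicate 1 of TC32 vehicle, NT5E was at -4.25 and L1CAM at -7.18 against CHLA10 and at -3.34 and -5.49 against A673. With limma-voom the calls of CD44 and L1CAM in A673 against CHLA10, of NT5E in TC32 against CHLA10 and of NT5E, CD44 and L1CAM in TC32 against A673 were lost, and CD44 in TC32 against A673 was also lost without replicate 3 of A673 vehicle (1.54, adjusted p = 0.0732).

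The response of the 10 antigens to BMS-986158 differed by line and by time. In CHLA10, NCAM1 and THY1 rose and ALCAM fell at both times, and MCAM and CD24 also rose at 20 days. In A673, MCAM, CD24 and NCAM1 rose at both times, and NT5E, CD44, L1CAM, ENG and ALCAM rose at 20 days. In TC32, CD44, THY1 and CD99 fell at 3 days and none rose. None of the 10 was called in the same direction in all 3 lines. Without the 4 distant libraries ENG was called lower in each of them at 3 days. None of the 4 was from CHLA10 or TC32 at that time, where only the shared estimate of the spread was clearly smaller.

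**Figure D2:**
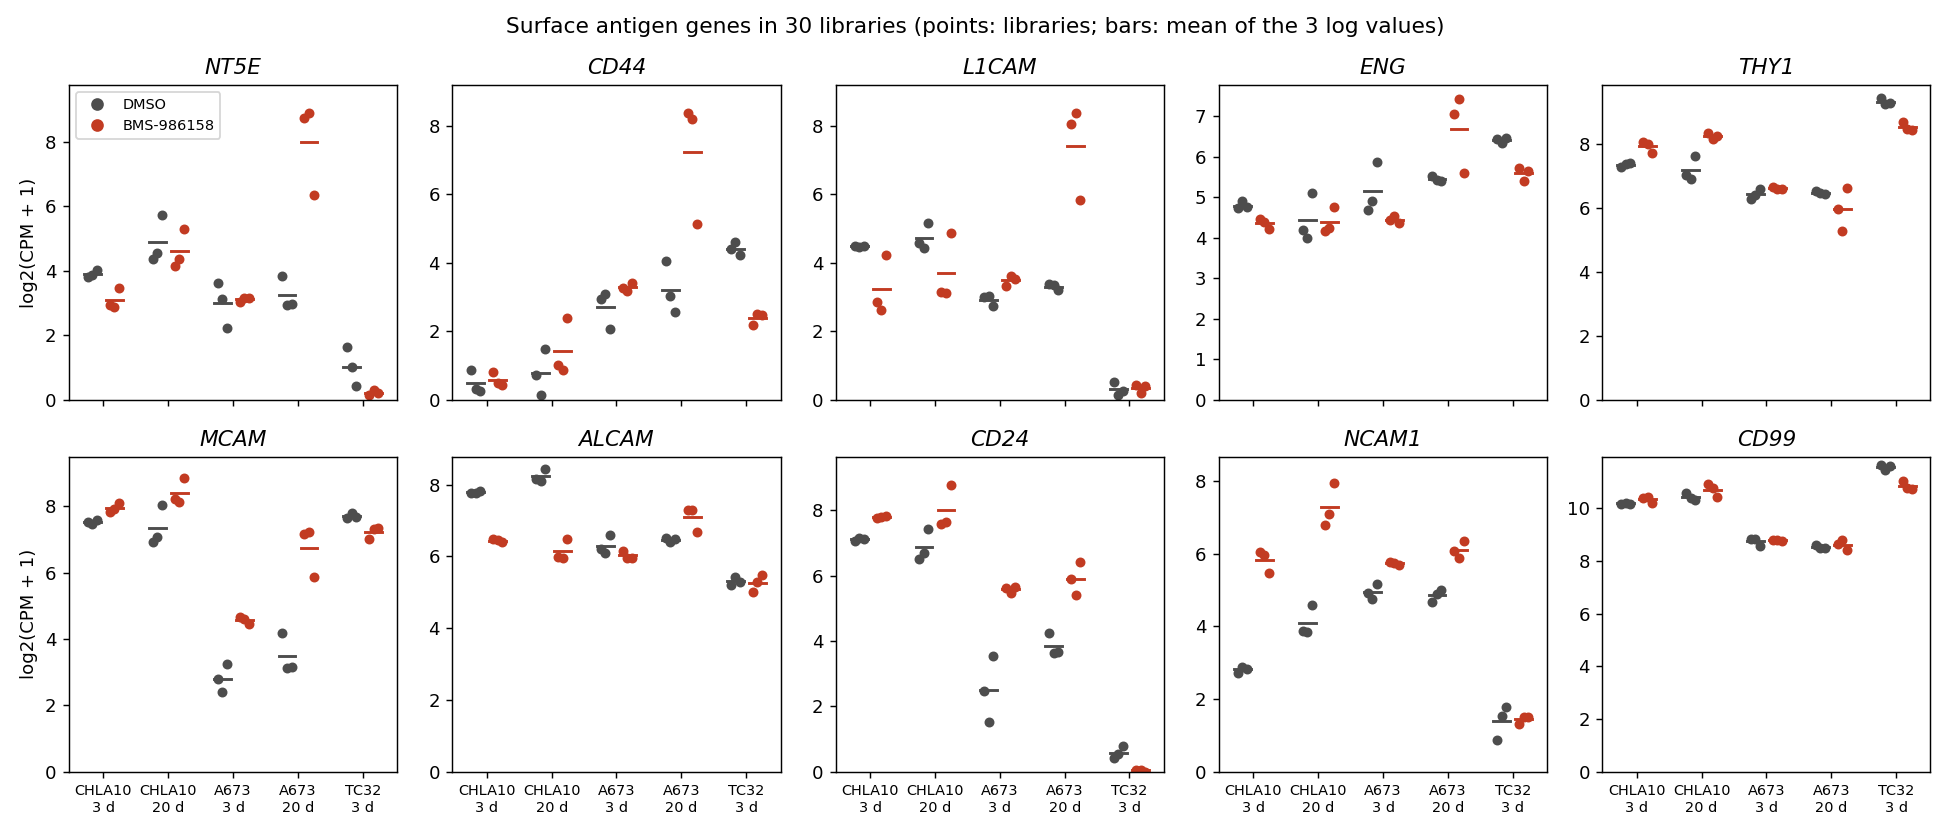
Level of each antigen in every library, as log2(CPM + 1), by line and time (x axis), with vehicle in grey and BMS-986158 in red. Points are libraries and bars are the mean of the 3 log values. NT5E, CD44 and L1CAM stand far above their other groups in A673 under BMS-986158 at 20 days, where 1 library lies below the other 2.

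By count, 2 of the 10 rose and 1 fell in CHLA10 at 3 days, where 29.8% of all genes were called (14.0% higher and 15.7% lower). In A673 at 3 days 3 rose and 0 fell, beside 33.7% of all genes called (15.3% higher and 18.4% lower). In TC32 at 3 days 0 rose and 3 fell, beside 45.1% (22.3% higher and 22.8% lower). After 20 days 4 rose and 1 fell in CHLA10, beside 33.7% (16.5% higher and 17.2% lower), and 8 rose and 0 fell in A673, beside 39.7% (19.7% higher and 19.9% lower). At 3 days the members' share was close to that of all genes or below it, and at 20 days it was above it, with 5 and 8 of 10 called. Because the members were chosen with earlier results of these data known, a share above that of all genes is a description only. In CHLA10 at 20 days, leaving out 1 library gave 3 to 5 of the 10, beside 25.0% to 32.8% of all genes. All these counts ignore any pairing of libraries by replicate number. With that number as a block, 6 of the 10 were called in CHLA10 at 20 days, beside 35.2% of all genes. All treated libraries lay above all vehicle libraries for 4 of the 10 and below them for 4 in CHLA10 at 3 days, which held for 26.4% and 28.6% of all genes. These counts were 6 and 1 in A673 at 3 days (22.9% and 23.7% of all genes), 0 and 7 in TC32 (27.0% and 28.0%), 4 and 1 in CHLA10 at 20 days (21.0% and 22.2%) and 8 and 0 in A673 at 20 days (22.2% and 24.2%). The median log2 change of the 10 at 3 days was 0.24 in CHLA10, 0.41 in A673 and -0.74 in TC32, and at 20 days 0.64 in CHLA10 and 1.81 in A673, beside medians over all genes between -0.02 and 0.00.

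**Figure D3:**
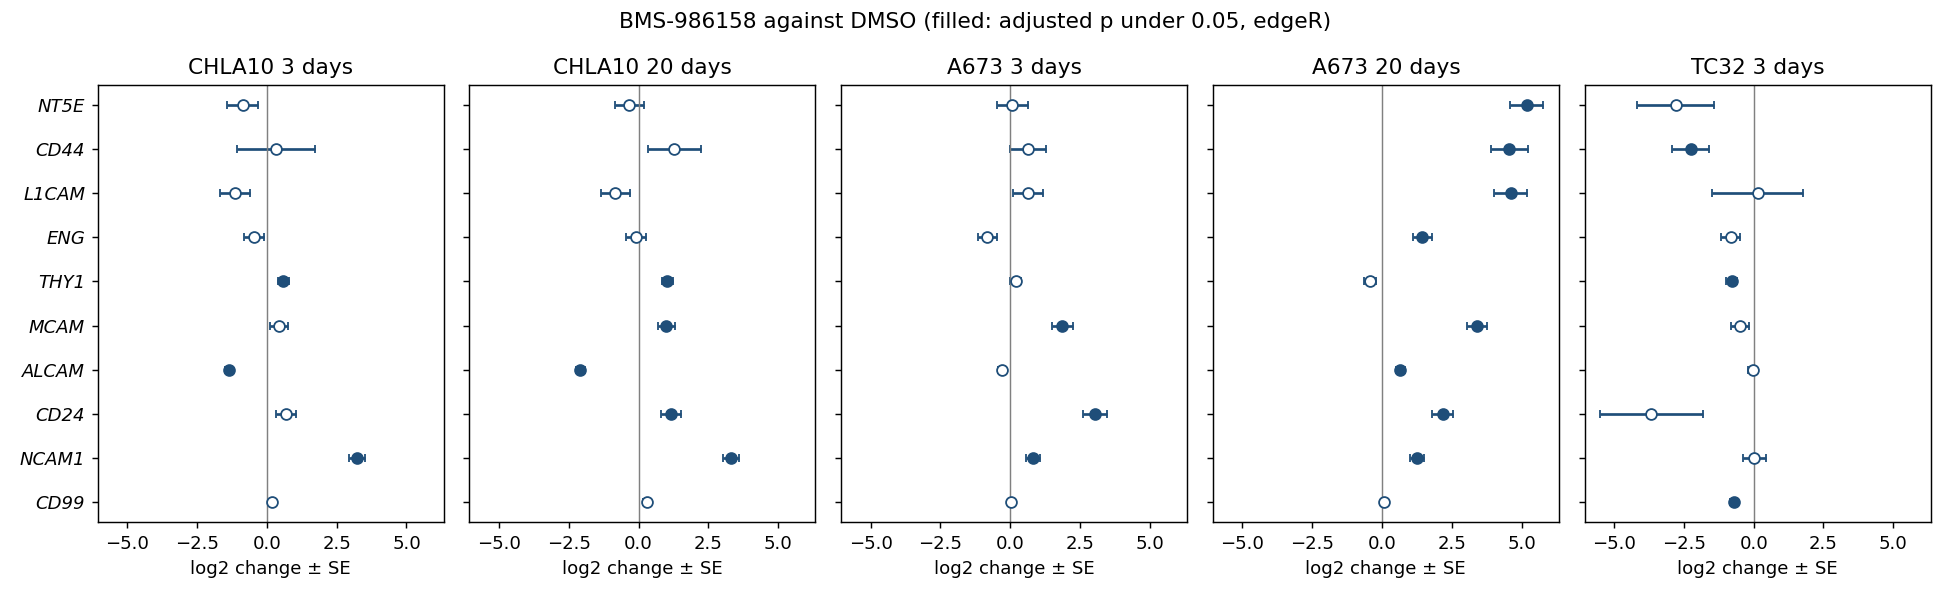
Log2 change under BMS-986158 against vehicle (x axis) for each antigen (y axis) in the 5 comparisons of line and time, with error bars of 1 standard error. Filled points passed adjusted p under 0.05. The 20-day change in A673 is 5.18 for NT5E, 4.61 for L1CAM and 4.56 for CD44, and NCAM1 is at 3.22 and 3.31 in CHLA10.

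NT5E (ENSG00000135318, chr6:85449584-85495791 on the plus strand of GRCh38) is the ecto-enzyme that makes adenosine from AMP outside the cell. In A673 at 20 days it was at 425, 473 and 80.1 CPM under BMS-986158 and at 13.4, 6.60 and 6.88 CPM in vehicle. All treated libraries were above all vehicle libraries, replicate 3 was the lowest of the treated, and the log2 change was 5.18 ± 0.59 (SE, adjusted p = 5.12e-07). Per length NT5E moved from rank 7 of the 10 in vehicle (1.98 CPM per kilobase) to rank 2 under BMS-986158 (71.9). At 3 days in A673 it was at 7.27, 8.01 and 7.98 CPM under BMS-986158, inside the range of its vehicle libraries of 3.66 to 11.3 CPM, with a log2 change of 0.07 ± 0.56 (adjusted p = 0.949). In CHLA10 the values were 6.68, 6.28 and 10.1 CPM against 12.9, 13.7 and 15.2 CPM at 3 days, where the treated libraries were lower without overlap but the change of -0.86 ± 0.55 did not pass the test (adjusted p = 0.259). It did without the 4 distant libraries (-0.86, adjusted p = 0.0109). The CHLA10 change at 20 days was -0.33 ± 0.51 (adjusted p = 0.671). In TC32 NT5E had 10 counts in the 3 treated and 64 in the 3 vehicle libraries, a library-size-adjusted ratio of 7.14 of vehicle to treated with an exact 95% counting interval of 3.64 to 15.6. Its log2 change of -2.79 ± 1.38 did not pass the test (adjusted p = 0.106), but was called by DESeq2 (-2.83, adjusted p = 0.000719) and without the 4 distant libraries (-2.80, adjusted p = 0.00737). Over the 10 groups NT5E was thus lowest in TC32, close together in the A673 3-day groups, A673 20-day vehicle and CHLA10 at 3 days under BMS-986158 with ranges that overlapped (means of 7.58 to 8.96 CPM), and highest in treated A673 at 20 days with a mean of 326 CPM.

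CD44 (ENSG00000026508, chr11:35138870-35232402 on the plus strand of GRCh38) is the main receptor for hyaluronan, and the gene-level counts do not separate its splice forms. In A673 at 20 days it was at 329, 294 and 34.2 CPM under BMS-986158 and at 15.6, 7.23 and 4.89 CPM in vehicle, a log2 change of 4.56 ± 0.67 (adjusted p = 1.34e-05), and of 5.17 without replicate 1 of the vehicle. As for NT5E, all treated libraries lay above vehicle and replicate 3 was closest to it. In TC32 CD44 moved the other way, from 20.1, 23.6 and 17.8 CPM in vehicle to 3.56, 4.71 and 4.59 CPM under BMS-986158 with no overlap. The log2 change was -2.26 ± 0.67 (adjusted p = 0.00856), and this call was lost with limma-voom (adjusted p = 0.115). CHLA10 had little CD44, at most 0.821 CPM in any library at 3 days and 4.20 CPM at 20 days, and no change passed the test there (0.32 ± 1.39 and 1.28 ± 0.95). A673 at 3 days had 8.64, 8.09 and 9.68 CPM under BMS-986158 against 6.66, 7.45 and 3.21 CPM, a log2 change of 0.63 ± 0.65 (adjusted p = 0.487) without overlap between the groups.

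ENG (ENSG00000106991, chr9:127815012-127854756 on the minus strand of GRCh38) is a co-receptor for ligands of the TGF-beta and BMP family. After 20 days in A673 it rose to 133, 172 and 47.5 CPM from 45.4, 42.1 and 41.7 CPM, by a log2 change of 1.45 ± 0.34 (adjusted p = 0.00159), with replicate 3 just above the vehicle range. At 3 days every line had lower ENG under BMS-986158 without overlap, and no change passed the test: -0.46 ± 0.35 in CHLA10 (adjusted p = 0.348), -0.83 ± 0.34 in A673 (adjusted p = 0.0652) and -0.82 ± 0.34 in TC32 (adjusted p = 0.0527). All 3 were called without the 4 distant libraries. At 3 days that fit left out a library of A673 only. In CHLA10 and TC32 the changes were then -0.46 ± 0.11 and -0.83 ± 0.10, much the same values with smaller standard errors. In CHLA10 at 20 days the change was -0.10 ± 0.35 (adjusted p = 0.863). A673 was called with DESeq2 (-0.87, adjusted p = 0.0191) and with library size only (-0.90, adjusted p = 0.0362). TC32 was called with DESeq2, RLE size factors, library size only, limma-voom and a replicate block (adjusted p of 0.0173 to 0.0499). It was also called when only TC32 was fitted (-0.83, adjusted p = 5.94e-05). In A673 at 3 days vehicle replicate 3 was at 57.2 CPM and the other vehicle libraries at 24.6 and 29.2 CPM. Without the 4 distant libraries the change there was -0.33 (adjusted p = 0.0197). Without replicate 1 of the A673 vehicle it was -1.05 (adjusted p = 0.035). ENG shares 313 bases of exon with AL162586.1, which had a mean of 26.1 counts per library beside 899 for ENG.

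THY1 (ENSG00000154096, chr11:119417378-119424985 on the minus strand of GRCh38), a GPI-anchored glycoprotein of fibroblasts, neurons and T cells, changed in opposite directions in CHLA10 and TC32. In CHLA10 it was at 271, 259.7 and 212 CPM under BMS-986158 and at 155, 166 and 171 CPM in vehicle at 3 days, and at 326, 289.7 and 304 CPM against 131, 119.6 and 201 CPM at 20 days. The treated libraries were higher without overlap at both times, by log2 changes of 0.59 ± 0.20 (adjusted p = 0.026) and 1.03 ± 0.20 (adjusted p = 0.000283). The 3-day call was lost when any single library other than treated replicate 3 was left out (adjusted p of 0.0537 to 0.0981) and with no filter on low counts (adjusted p = 0.0625). In TC32 THY1 fell from 699, 618 and 626 CPM to 420.4, 358 and 352 CPM, by 0.78 ± 0.20 on the log2 scale (adjusted p = 0.00239). In A673 at 3 days the change of 0.19 ± 0.20 did not pass (adjusted p = 0.508), and did without the 4 distant libraries (0.31, adjusted p = 0.0476). After 20 days in A673 treated replicates 1 and 2 were at 61.5 and 38.5 CPM, below the vehicle range of 86.3 to 92.9 CPM, and replicate 3 was above it at 97.9 CPM. The change of -0.43 ± 0.20 did not pass the test (adjusted p = 0.0953), and was -0.83 (adjusted p = 0.000328) without treated replicate 3 and -0.84 (adjusted p = 6.08e-06) without the 4 distant libraries. NT5E, CD44 and ENG, the other stromal markers, rose in this comparison and THY1 did not.

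L1CAM (ENSG00000198910, chrX:153861514-153886174 on the minus strand of GRCh38) is a neural adhesion molecule that binds itself and integrins. In A673 it rose at 20 days to 267, 331 and 55.9 CPM from 9.35, 9.14 and 8.24 CPM, a log2 change of 4.61 ± 0.58 (adjusted p = 1.66e-06). Every treated library was above vehicle, and replicate 3 was again the lowest. At 3 days in A673 the treated libraries were at 9.09, 11.2 and 10.6 CPM against 5.73 to 7.16 CPM, higher without overlap but with a change of 0.64 ± 0.55 that did not pass the test (adjusted p = 0.393). In CHLA10 the treated libraries at 3 days were at 6.24, 5.21 and 17.7 CPM and those of vehicle at 21.1 to 21.5 CPM. This change was -1.14 ± 0.53 (adjusted p = 0.113), and -1.89 (adjusted p = 0.0194) without treated replicate 3 and -1.14 (adjusted p = 0.00315) without the 4 distant libraries. At 20 days in CHLA10 the treated libraries were at 7.82, 7.65 and 28.6 CPM against 22.9, 20.8 and 34.7 CPM. The 20-day change was -0.83 ± 0.51 (adjusted p = 0.233), -1.75 (adjusted p = 0.0166) without treated replicate 3 and -1.49 (adjusted p = 0.00233) without the 4 distant libraries. In TC32 L1CAM had 16 counts over the 3 treated and 13 over the 3 vehicle libraries, and no difference was detectable at this depth (adjusted p = 0.97).

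NCAM1 (ENSG00000149294, chr11:112961247-113278436 on the plus strand of GRCh38), the neural cell adhesion molecule that can carry polysialic acid, rose in CHLA10 and A673 at both times. In CHLA10 it was at 64.9, 61.5 and 43.0 CPM under BMS-986158 and at 5.63, 6.42 and 6.10 CPM in vehicle at 3 days. At 20 days it was at 110.2, 137 and 248 CPM against 13.6, 13.4 and 23.04 CPM. The groups were far apart at both times, with log2 changes of 3.22 ± 0.28 (adjusted p = 6.83e-09) and 3.31 ± 0.27 (adjusted p = 1.38e-09). Per length NCAM1 moved at 20 days from rank 9 (1.31 CPM per kilobase) to rank 5 (12.96) of the 10. In A673 it was at 53.7, 52.5 and 51.1 CPM against 29.1, 26.0 and 35.2 CPM at 3 days, and at 65.9, 57.8 and 80.5 CPM against 24.5, 28.9 and 31.3 CPM at 20 days. These smaller changes were 0.80 ± 0.25 (adjusted p = 0.0143) and 1.27 ± 0.25 (adjusted p = 0.000213), and the first was lost without vehicle replicate 2 (0.70, adjusted p = 0.0687). TC32 had 1.48 to 1.87 CPM under BMS-986158 and 0.837 to 2.46 CPM in vehicle (log2 change 0.03 ± 0.40, adjusted p = 0.976). The response at 3 days was lower in A673 than in CHLA10 by a log2 difference of -2.42 ± 0.37 (adjusted p = 0.000177), and lower in TC32 than in CHLA10 by -3.19 ± 0.49 (adjusted p = 0.000239).

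ALCAM (ENSG00000170017, chr3:105366909-105576900 on the plus strand of GRCh38), the ligand of CD6 and a partner of L1CAM, was called lower in CHLA10 and higher in A673 at 20 days. In CHLA10 it fell from 216, 217 and 224 CPM to 88.2, 86.7 and 82.7 CPM at 3 days and from 284, 273 and 344 CPM to 62.6, 61.5 and 87.7 CPM at 20 days. All treated libraries lay below all vehicle libraries, and ALCAM fell by 1.35 ± 0.15 (adjusted p = 1.64e-07) and by 2.09 ± 0.16 on the log2 scale (adjusted p = 9.6e-11). After 20 days in A673 it rose to 156, 155 and 102 CPM from 90.7, 82.9 and 88.3 CPM, by 0.66 ± 0.15 (adjusted p = 0.000976). The difference between these 20-day effects was 2.74 ± 0.22 (adjusted p = 1.25e-09). At 3 days its change was -0.29 ± 0.15 in A673 (adjusted p = 0.143) and -0.04 ± 0.16 in TC32 (adjusted p = 0.859).

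MCAM (ENSG00000076706, chr11:119308529-119321521 on the minus strand of GRCh38) rose in A673 at 3 days to 24.5, 23.3 and 20.9 CPM from 5.89, 4.29 and 8.49 CPM, by a log2 change of 1.87 ± 0.37 (adjusted p = 0.000483). At 20 days it was at 142, 148 and 57.9 CPM against 17.3, 7.78 and 7.90 CPM, with a change of 3.39 ± 0.36 (adjusted p = 1.79e-07) and again the lowest treated value in replicate 3. In CHLA10 at 3 days it was at 227, 242 and 274 CPM against 184, 177 and 190.1 CPM, higher without overlap and not past the test (0.43 ± 0.32, adjusted p = 0.34). In CHLA10 at 20 days it was at 301, 281 and 461 CPM against 120.4, 135 and 265 CPM. Those groups did not overlap, and the change of 1.00 ± 0.32 (adjusted p = 0.0202) was lost without treated replicate 3 (adjusted p = 0.119), vehicle replicate 1 (0.112) or vehicle replicate 2 (0.0999), but was 1.20 and called without the 4 distant libraries. In TC32 MCAM was lower without overlap, at 129, 159.5 and 162 CPM against 202, 221 and 206 CPM, and the change of -0.48 ± 0.32 did not pass the test (adjusted p = 0.24). It did pass when only TC32 was fitted (-0.49, adjusted p = 0.00117) and without the 4 distant libraries (-0.49, adjusted p = 0.02). MCAM shares 509 bases of exon with CBL on the opposite strand, and whether the counting used strand is not stated in the labels.

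The promoters of MCAM, ALCAM and CD24 are printed here because these 3 genes were called in both lines at 20 days and their upstream bases are in the RefSeq table. Each is the 250 bases upstream of the first listed start site on GRCh38.p14, read 5′ to 3′ on the strand of the gene. Capitals mark GGAA or its complement TTCC, the core recognised by ETS factors. MCAM lies at chr11:119317131-119317380 on the minus strand, ALCAM at chr3:105366659-105366908 on the plus strand and CD24 at chr6:106975628-106975877 on the minus strand.
MCAM: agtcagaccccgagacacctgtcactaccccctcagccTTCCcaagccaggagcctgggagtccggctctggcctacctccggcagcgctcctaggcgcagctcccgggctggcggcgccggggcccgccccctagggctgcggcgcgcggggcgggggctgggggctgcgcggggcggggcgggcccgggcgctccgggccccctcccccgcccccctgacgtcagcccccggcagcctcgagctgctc
ALCAM: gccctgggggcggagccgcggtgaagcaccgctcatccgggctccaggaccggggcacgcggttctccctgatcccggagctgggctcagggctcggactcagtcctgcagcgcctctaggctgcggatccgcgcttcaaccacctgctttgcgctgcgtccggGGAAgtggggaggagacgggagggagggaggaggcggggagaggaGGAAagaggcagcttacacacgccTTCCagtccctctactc
CD24: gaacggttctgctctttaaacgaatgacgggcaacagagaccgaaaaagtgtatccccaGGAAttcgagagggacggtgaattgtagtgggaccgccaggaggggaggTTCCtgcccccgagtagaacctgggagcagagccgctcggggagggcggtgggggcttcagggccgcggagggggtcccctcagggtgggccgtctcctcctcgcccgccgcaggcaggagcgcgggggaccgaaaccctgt
The MCAM window held 1 GGAA on either strand, that of ALCAM 3 and that of CD24 2, beside a median of 3 over 34961 promoter windows of the same length, of which 92.7% held at least 1. GGAAGGAA, 2 cores in a row, was in 3.06% of all windows and in none of those of the 8 members in the table. The same held for TATAAA (10.7% of windows) and TGANTCA (6.54%). The windows of NT5E and CD44 lay wholly in annotated exons (250 of 250 bases each). Those of L1CAM, CD99 and ENG lay partly in exons, with 176, 162 and 98 bases. The windows of MCAM, ALCAM and CD24 held 0 such bases. That of MCAM lay inside the gene span given above, so it is not upstream of the whole annotated gene. CD24 has 3 listed starts, whose windows held 2, 1 and 3 GGAA. For NT5E, CD44, L1CAM, CD99 and ENG the missing motifs therefore do not describe purely upstream sequence. The GC content was 79.6% for MCAM, 68.8% for ALCAM and 65.6% for CD24, against a median of 58.4%. A match is a description of letters in this window and not a bound site.

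CD24 (ENSG00000272398, chr6:106969831-106975627 on the minus strand of GRCh38), a heavily glycosylated antigen of immature B cells and of neural and epithelial cells, rose in A673 at both times and in CHLA10 at 20 days. In A673 at 3 days it was at 48.3, 43.6 and 49.1 CPM under BMS-986158 and at 4.54, 1.87 and 10.5 CPM in vehicle. The treated libraries were alike and the vehicle libraries scattered, with no overlap, and the log2 change of 3.03 ± 0.42 (adjusted p = 1.02e-05) was 3.94 without vehicle replicate 3 and 3.99 without the 4 distant libraries. After 20 days in A673 it was at 58.7, 41.2 and 83.6 CPM against 17.8, 11.3 and 11.6 CPM, with a change of 2.17 ± 0.39 (adjusted p = 0.000122). In CHLA10 at 20 days it was at 191, 199 and 431 CPM against 90.4, 103 and 171 CPM. This change of 1.17 ± 0.36 (adjusted p = 0.0158) was lost without treated replicate 3 (0.68, adjusted p = 0.165), vehicle replicate 1 (adjusted p = 0.0832) or vehicle replicate 2 (adjusted p = 0.0719). At 3 days CHLA10 had 215, 218 and 226 CPM against 132, 141 and 139 CPM, higher without overlap and not past the test (0.68 ± 0.36, adjusted p = 0.168), though called without the 4 distant libraries (0.67, adjusted p = 0.000709). In TC32 CD24 had 2 counts in the 3 treated and 26 in the 3 vehicle libraries, a library-size-adjusted ratio of 14.5 of vehicle to treated with an exact 95% counting interval of 3.63 to 126. The test did not call it (adjusted p = 0.11), while DESeq2 did (adjusted p = 0.00218), as did the fit without the 4 distant libraries (adjusted p = 0.00686). CD24 has near-identical copies elsewhere in the genome, so its counts are uncertain.

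CD99 (ENSG00000002586, chrX:2691133-2741309 on the plus strand of GRCh38), a transmembrane protein of leukocyte migration and cell adhesion that is high in Ewing sarcoma, kept the highest level per length of the 10 in every group, from 74.7 to 613 CPM per kilobase. In TC32 it fell from 3153, 2753 and 3127 CPM to 2110, 1721 and 1682 CPM with no overlap. CD99 fell by 0.71 ± 0.12 on the log2 scale (adjusted p = 2.09e-05). The gene lies in the region shared by X and Y. In A673 the log2 change was 0.04 ± 0.12 at 3 days (adjusted p = 0.851) and 0.09 ± 0.12 at 20 days (adjusted p = 0.578), with overlapping libraries. CHLA10 had 0.17 ± 0.12 at 3 days (adjusted p = 0.304) and 0.29 ± 0.12 at 20 days (adjusted p = 0.0638). The 20-day change in CHLA10 was 0.28 and called with the replicate number as a block (adjusted p = 0.0239), where the numbers pair the libraries, and 0.37 and called without the 4 distant libraries (adjusted p = 0.00499). The response in TC32 was lower than in CHLA10 by a log2 difference of -0.88 ± 0.17 (adjusted p = 0.00107) and lower than in A673 by -0.75 ± 0.17 (adjusted p = 0.00193).

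The 3 libraries of A673 at 20 days under BMS-986158 were not alike in these antigens. In replicates 1 and 2, NT5E, CD44, L1CAM, ENG, MCAM, ALCAM and CD99 were all higher than in replicate 3, and THY1, CD24 and NCAM1 were all lower. The spread of CD99 was small, at 395, 439 and 339 CPM in replicates 1, 2 and 3. Of the 10 genes of the Ewing sarcoma identity list, 7 were highest in replicate 3 of the treated libraries, and CD99, FLI1 and LIPI were not. BCL11B, a zinc-finger factor, was at 41.0, 32.5 and 127 CPM in replicates 1, 2 and 3 beside 116 to 125 CPM in vehicle, and NR0B1, a nuclear receptor induced by the fusion, was at 51.6, 43.0 and 119 CPM beside 145 to 155 CPM. NKX2-2 was at 8.68, 11.1 and 25.4 CPM beside 44.0 to 46.4 CPM in vehicle. Of the 10 identity genes 7 fell and 0 rose in this comparison, beside 19.9% of all genes called lower and 19.7% higher. The summed level of the identity genes was 2230 to 2471 CPM in the treated and 3503 to 3688 CPM in the vehicle libraries. KRT18, an epithelial keratin, was at 626, 532 and 113 CPM in replicates 1, 2 and 3 beside 111 to 143 CPM in vehicle. The sum of 5 epithelial genes was 119.7 to 649 CPM in treated and 124 to 152 CPM in vehicle libraries. KRT18 is 1 of these 5 and made up most of the sum, which is therefore not a separate observation. The share of counts from mitochondrial genes was 2.19%, 2.03% and 3.58% in replicates 1, 2 and 3 beside 1.68% to 2.96% in vehicle. The part of these in the antigens' changes was not tested, and in bulk RNA fewer cells of a type and less RNA per cell cannot be told apart. Without the 4 distant libraries, replicate 3 among them, the log2 changes were 5.62 for NT5E, 5.05 for CD44, 5.05 for L1CAM, 1.81 for ENG and 3.70 for MCAM, and 8 of the 10 antigens rose and 1 fell (47.7% of all genes called).

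**Figure D4:**
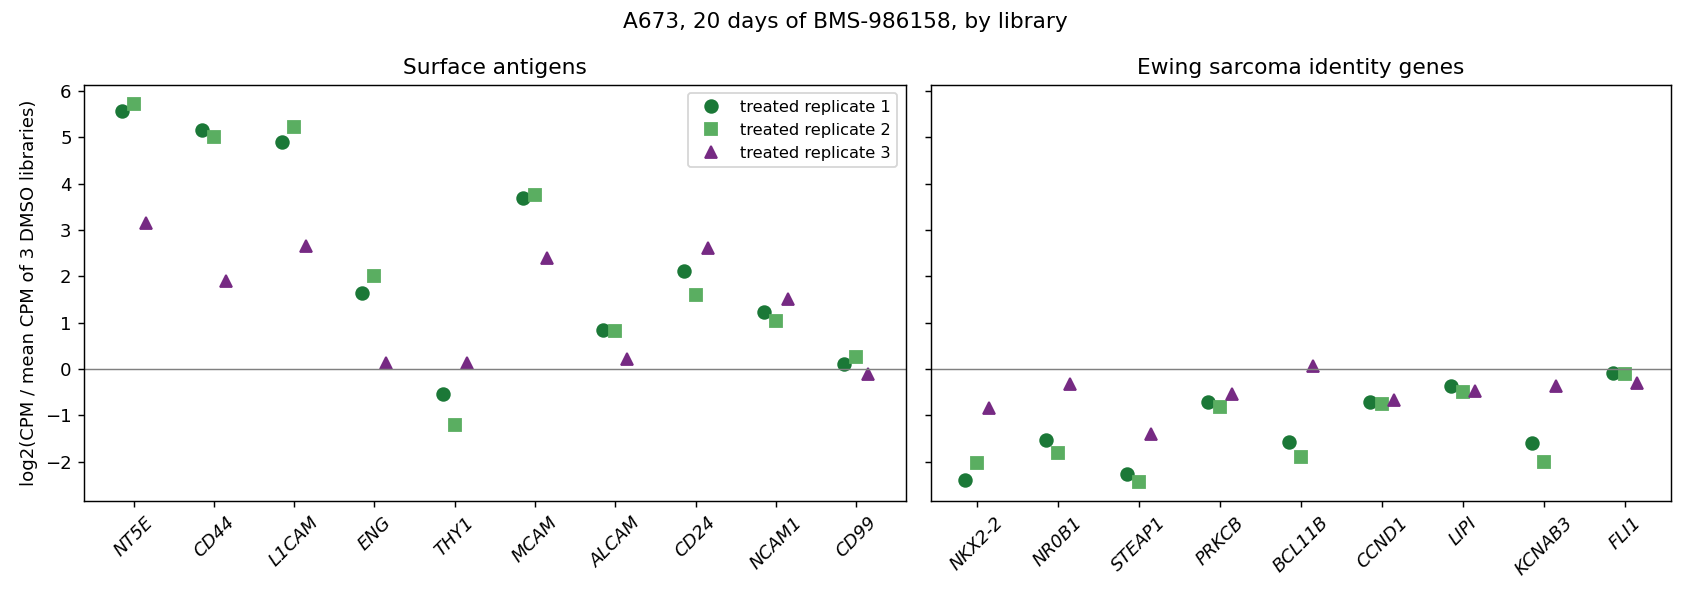
A673 at 20 days: the log2 level of each BMS-986158 library over the mean of the vehicle libraries, for the 10 surface antigens (left) and for 9 genes of Ewing sarcoma identity (right). Each point is 1 library, and each replicate has its own marker. Replicate 3 is lowest for NT5E, CD44, L1CAM, ENG, MCAM, ALCAM and CD99 and highest for 7 of the 9 identity genes, all but FLI1 and LIPI.

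In CHLA10 at 20 days replicate 3 stood apart in both arms. PRKCB, a kinase gene activated by the fusion, was at 466, 495 and 245 CPM in treated and at 786, 814 and 507 CPM in vehicle replicates 1, 2 and 3. The same library was the highest of its group for NT5E, CD44, L1CAM, ENG, MCAM, ALCAM, CD24 and NCAM1 in both arms. For CD99 it was the lowest in both arms. PRKCB is 1 gene of the identity list, picked after its values were seen, and besides CD99 the others are not given by library here. The summed level of the 10 identity genes was 3353 to 5503 CPM in the treated libraries, with a median of 5398 CPM. In the vehicle libraries it was 5292 to 6937 CPM, with a median of 6735 CPM.

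The difference between responses was tested directly. In A673, 5 of the 10 antigens had a higher response at 20 than at 3 days and 0 a lower one, beside 7.26% of all genes called in either direction. These were NT5E (5.11 ± 0.79, adjusted p = 0.000497), L1CAM (3.97 ± 0.77, adjusted p = 0.0029), CD44 (3.93 ± 0.90, adjusted p = 0.00957), ENG (2.28 ± 0.48, adjusted p = 0.00523) and ALCAM (0.95 ± 0.21, adjusted p = 0.00653). CD44 was at 4.54 without replicate 1 of the 20-day vehicle, and its call was lost with limma-voom (3.35, adjusted p = 0.131). MCAM (1.52, adjusted p = 0.0694), CD24 (-0.86), THY1 (-0.62), NCAM1 (0.47) and CD99 (0.06) did not pass. MCAM was called without treated replicate 3 (1.84) or vehicle replicate 1 (2.02) at 20 days, with DESeq2 (1.52) and with a replicate block (1.49). Lower responses at 20 days were called for THY1 without treated replicate 3 (-1.02, adjusted p = 0.00271) and for CD24 without replicate 3 of the 3-day vehicle (-1.77, adjusted p = 0.037). Without the 4 distant libraries both were called lower, THY1 at -1.15 and CD24 at -2.12, and 6 were called higher, among them MCAM (1.47), NT5E (5.86) and CD44 (4.68), beside 25.4% of all genes. In CHLA10 only ALCAM differed between the times, by -0.74 ± 0.21 (adjusted p = 0.0375, 6.32% of all genes called), and 10 of the fits that left out 1 library lost this call (adjusted p of 0.063 to 0.0911), as did the fit with no filter (adjusted p = 0.0545). The differences of the other 9 lay between 0.09 for NCAM1 and 0.96 for CD44 (NT5E 0.53, L1CAM 0.31, ENG 0.36, THY1 0.44, MCAM 0.57, CD24 0.50, CD99 0.12). ENG (0.58) and THY1 (0.72) were called higher without the 4 distant libraries, beside 18.5% of all genes.

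Between A673 and CHLA10 at 20 days, 5 responses were higher in A673 and 2 lower, beside 21.9% of all genes. NT5E (5.50 ± 0.76), L1CAM (5.44 ± 0.76), ALCAM (2.74 ± 0.22), MCAM (2.38 ± 0.47) and ENG (1.55 ± 0.48) were higher and NCAM1 (-2.04 ± 0.35) and THY1 (-1.46 ± 0.28) lower. The ENG difference (adjusted p = 0.0244) was lost in 6 fits that left out 1 library (adjusted p of 0.0502 to 0.0961), with limma-voom (1.26, adjusted p = 0.101) and with no filter (1.49, adjusted p = 0.0587). L1CAM was at 6.36 without CHLA10 treated replicate 3. CD44 (3.28 ± 1.23, adjusted p = 0.0603), CD24 (0.99) and CD99 (-0.19) did not pass. CD44 was called with the replicate block (3.03, adjusted p = 0.0175), with DESeq2 (3.30, adjusted p = 0.0136) and in 4 fits that left out 1 library, and CD24 without CHLA10 treated replicate 3 (1.48). Without the 4 distant libraries CD44 (3.78) and CD24 (0.84) were called, L1CAM was at 6.54 and THY1 at -2.14, beside 32.4% of all genes.

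The lines were compared in the same way at 3 days. At 3 days 2 responses were higher and 1 lower in A673 than in CHLA10 (10.5% of all genes), namely ALCAM and CD24, and NCAM1. NT5E (0.93), CD44 (0.31), L1CAM (1.78), ENG (-0.37), THY1 (-0.41), MCAM (1.43) and CD99 (-0.13) did not pass. L1CAM was called without CHLA10 treated replicate 3 (2.53), and MCAM without A673 vehicle replicate 3 (1.75), with DESeq2 (1.42) and with a replicate block (1.46). Without the 4 distant libraries both were called (1.72 and 1.80), beside 27.5% of all genes, and CD24 was at 3.32. TC32 had 1 higher and 3 lower responses than CHLA10 (13.8%), and 0 higher and 5 lower than A673 (24.2%). Against CHLA10 ALCAM was higher and THY1, NCAM1 and CD99 were lower, and NT5E (-1.92), CD44 (-2.58), L1CAM (1.27), ENG (-0.36), MCAM (-0.91) and CD24 (-4.33) did not pass. Of these CD24 was called with DESeq2 (-4.57) and MCAM with a replicate block (-0.91), and CD44 (-2.60), MCAM (-0.92) and CD24 (-4.34) without the 4 distant libraries, beside 27.4% of all genes. Against A673 CD44, THY1, MCAM, CD24 and CD99 were lower, and NT5E (-2.85), L1CAM (-0.50), ENG (0.02), ALCAM (0.25) and NCAM1 (-0.77) did not pass. Of these NT5E was called with DESeq2 (-2.82), and NT5E (-2.57) and NCAM1 (-0.95) without the 4 distant libraries, beside 34.4% of all genes, where CD24 was at -7.66. That of CD24 rests on 2 treated counts in TC32, and that of CD44 (-2.89 ± 0.93, adjusted p = 0.0272) was lost in 5 fits that left out 1 library (adjusted p of 0.0507 to 0.0648), with limma-voom (adjusted p = 0.167) and with no filter (adjusted p = 0.0513), which also lost that of THY1 (adjusted p = 0.0524).

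Vehicle libraries were also compared between the times. In CHLA10, NCAM1 (1.45 ± 0.28, adjusted p = 0.00114) and ALCAM (0.45 ± 0.15, adjusted p = 0.0393) were higher at 20 days, 2 of the 10 beside 15.1% of all genes, and the ALCAM call was lost when any of the 6 libraries was left out (adjusted p of 0.0549 to 0.154) and with no filter (adjusted p = 0.0653). The others were at 1.17 for NT5E, 0.99 for CD44, 0.29 for L1CAM, 0.25 for CD99, -0.08 for MCAM, -0.13 for THY1, -0.18 for CD24 and -0.30 for ENG. Without the 4 distant libraries ENG (-0.76), THY1 (-0.42), MCAM (-0.55) and CD24 (-0.54) were called lower and CD99 (0.28) higher, beside 29.1% of all genes. In A673 edgeR called 0 of the 10 (6.10% of all genes), with 2 at an unadjusted p under 0.05, CD24 at 1.24 and MCAM at 0.82. DESeq2 called 1, CD24 at 1.25 (adjusted p = 0.0482), and limma-voom 0. NT5E (0.28), CD44 (0.70), L1CAM (0.43), ENG (0.21), THY1 (0.05), ALCAM (0.15), NCAM1 (-0.10) and CD99 (-0.23) were not called by any of these tools. CD24 was also called without replicate 3 of the 3-day vehicle (2.15, adjusted p = 0.00164). When the 4 distant libraries were left out 5 were called, beside 33.7% of all genes: CD24 (2.22), MCAM (1.20), ENG (0.72) and ALCAM (0.37) higher and CD99 (-0.27) lower.

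Genes that act with the antigens were counted from lists drawn up by pathway. Counts of genes that rose and fell are given in the order CHLA10 at 3 days, A673 at 3 days, TC32, CHLA10 at 20 days and A673 at 20 days, over the members that passed the filter on low counts. Over all genes 14.0%, 15.3%, 22.3%, 16.5% and 19.7% were called higher and 15.7%, 18.4%, 22.8%, 17.2% and 19.9% lower in the same order, beside which each list is to be read. Of 13 genes of extracellular adenosine, 0, 0, 0, 2 and 1 rose and 4, 8, 6, 3 and 8 fell, with medians of -0.22, -1.22, -0.26, -0.30 and -0.75 beside -0.02 to 0.00 over all genes. ALPL, an alkaline phosphatase that also makes adenosine from AMP, fell in all 5 comparisons, with log2 changes of -1.82, -1.92, -1.38, -2.31 and -2.10. ENTPD3, which hydrolyses ATP to ADP and AMP upstream of NT5E, fell in CHLA10 (-3.86 at 3 and -6.10 at 20 days) and in A673 (-3.63 and -5.36). In A673 at 20 days NT5E rose and 8 of the 13 fell, beside 19.9% of all genes.

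Around CD44, 2, 3, 4, 2 and 5 of 13 genes of hyaluronan and CD44 rose and 2, 3, 3, 2 and 1 fell. CEMIP2, a cell surface hyaluronidase, rose in all 5 comparisons (0.97, 1.20, 1.37, 1.24 and 0.83), and HYAL1, a lysosomal hyaluronidase, rose in TC32 (1.76) and in A673 at 20 days (2.33). ESRP1, a splicing factor that favours the variant exons of CD44, fell at 3 days in CHLA10 (-3.27), A673 (-3.24) and TC32 (-2.96) and at 20 days in CHLA10 (-3.98), and stood at 0.42 without a call in A673 at 20 days. HMMR, a hyaluronan receptor of dividing cells, fell in A673 (-0.90 at 3 and -0.63 at 20 days).

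Of 13 receptors and ligands of the TGF-beta and BMP family, which signal with ENG, 3, 2, 4, 1 and 6 rose and 4, 2, 5, 3 and 5 fell. TGFB3 fell in all 5 comparisons (-2.10, -1.51, -2.24, -2.50 and -1.49). TGFB2 fell in CHLA10 (-1.97 at 3 and -2.50 at 20 days) and in TC32 (-2.65), and rose in A673 at 20 days by 4.05, from a mean of 1.61 to 28.0 CPM (adjusted p = 0.000141).

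In the L1 and NCAM families with their modifiers, 1, 1, 2, 2 and 0 of 14 genes rose and 3, 4, 6, 3 and 7 fell. In A673 at 20 days, where L1CAM rose, 7 of these 14 fell, beside 19.9% of all genes, at a median of -1.54. ST8SIA4, an enzyme that adds polysialic acid to NCAM1, rose in CHLA10 by 2.84 at 3 and 3.14 at 20 days, where NCAM1 rose by 3.22 and 3.31, and fell in A673 at 20 days (-1.40).

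Of 18 genes of the CD99 family and other Ewing sarcoma surface antigens, 1, 3, 2, 3 and 3 rose and 6, 8, 7, 5 and 6 fell, at medians between -0.69 and -0.10. XG, the blood group gene related to CD99, fell in A673 (-3.96 at 3 and -5.42 at 20 days). STEAP1, a metalloreductase of Ewing sarcoma cells, fell at 3 and 20 days in CHLA10 (-1.07 and -1.48) and in A673 (-1.34 and -1.96), and was at -0.66 in TC32 (adjusted p = 0.0502). B4GALNT1, which makes the ganglioside GD2 from its precursor, fell in A673 (-1.39 at 3 and -1.78 at 20 days) and rose in CHLA10 at 20 days by 1.61.

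Other mesenchymal stromal surface markers did not all follow NT5E. Of 16 genes, 2, 2, 0, 2 and 5 rose and 8, 4, 8, 5 and 3 fell, with medians of -0.77, -0.53, -0.51, -0.61 and 0.37. In A673 at 20 days, where NT5E rose, more of them thus rose than fell. Their summed level there was 1509 to 2668 CPM in treated and 1262 to 1419 CPM in vehicle libraries. The genes named next were chosen by mean absolute change over the 5 comparisons, and only falls are given for them. The 5 rises in A673 at 20 days are thus not given by gene, and some of the falls named start from under 1 CPM. FAP, a protease of activated fibroblasts, fell in CHLA10 from means of 10.5 to 1.38 CPM at 3 days (-2.92) and of 15.6 to 0.863 CPM at 20 days (-4.17), and in A673 from levels under 1 CPM (-2.13 and -1.87). VCAM1, a ligand of leukocyte integrins, fell in CHLA10 from 2.03 to 0.168 CPM at 3 days (-3.54) and at 20 days (-3.97). PDPN, podoplanin, fell in TC32 from 6.89 to 1.63 CPM (-2.07) and, from a mean of 0.989 CPM, in A673 at 3 days (-4.09).

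Of 17 genes that build the GPI anchor carried by NT5E, THY1 and CD24, 5, 5, 6, 3 and 8 rose and 2, 2, 3, 1 and 2 fell. PIGM, a mannosyltransferase of the pathway, rose in all 5 comparisons (0.66, 0.97, 0.35, 0.52 and 0.73). PGAP1, which trims the anchor after it is attached, rose at 3 days by 1.26 in CHLA10, 0.67 in A673 and 0.92 in TC32 and by 0.80 in A673 at 20 days.

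Across the 10 group means of log2 CPM, which share the 3 lines, NT5E and L1CAM had a Pearson r of 0.96 and THY1 and CD99 of 0.95, as a description of these groups. CD44 and ENG were at 0.83, and L1CAM and THY1 at -0.77. Among 9718 genes, the profile most like that of NT5E was that of GLB1 (r = 0.986), followed by METRNL (0.974), and GLB1 was also most like L1CAM (0.977). For CD44 the nearest were PRKCSH (0.970) and BCAR1 (0.958), for ENG STK10 and TNXB (both 0.961), and for NCAM1 PLD1 (0.976) and GLI3 (0.959). MCAM was most like ZDHHC16 (0.983), CD24 like CTSC (0.973), THY1 like TBCA (0.983), CD99 like CHMP2A (0.990) and ALCAM like ERCC2 (0.913).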

How the data were processed

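The authors deposited 1 table of raw read counts (33538 Ensembl genes, 30 libraries), whose columns were matched to samples by title. Poly(A) libraries from column-purified RNA were read as pairs on a NovaSeq instrument, per the labels' protocols. The tools named are STAR, DESeq2, Trim Galore and FastQC and the build is GRCh38, per the submitters' processing notes. Neither versions nor the counter, annotation and strandedness are given in the sources used here. Reads of near-identical copies or overlapping genes could therefore be split or shared.

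Testing used edgeR 4.0.16 (R 4.3.3), with filterByExpr by group (16713 genes kept), TMM scaling and 1 robust quasi-likelihood fit of 10 group means to the 30 libraries. P-values were adjusted by Benjamini-Hochberg over all genes tested, and a gene was called at an adjusted p under 0.05. Standard errors were derived from the log2 change and its F statistic. CPM used TMM-scaled library sizes, and levels per length divided CPM by the exon length in GENCODE 29. Counting intervals are exact at 95% and cover counting error only. No replicate pair agreed within counting noise (lowest chi-square per gene 2.194 over 30 pairs). Members, partner lists and tests were chosen with earlier results of these data known. By the rule for names, all 10 antigens have a value in every comparison. Of each list up to 4 called genes with the largest mean absolute change are named, and for each antigen the genes most correlated over the group means (mean log2 CPM of at least 2). BCL11B, NR0B1, NKX2-2, PRKCB and KRT18 were named per library after their values were seen.

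Replicate numbers come from the sample titles. Deviations from the group means correlated at 0.20, 0.15 and 0.36 in CHLA10 at 20 days, and in no other comparison did every pair exceed 0.1. The numbers were therefore read as pairs in CHLA10 at 20 days, but only the replicate block used them. The main fit, its counts and the fits that left out libraries ignore this pairing. Alternatives were RLE size factors, library size only, DESeq2 1.42.0, limma-voom (limma 3.58.1), no filter on low counts, only the lines compared, a replicate block, each replicate left out and the 50 most abundant genes left out. Another fit, chosen after seeing the data, omitted the 4 most distant libraries. RefSeq promoters (GRCh38.p14) were matched by symbol for 8 of 10 genes, and motifs were searched on both strands. Figures used matplotlib 3.10.9 in Python 3.11.15, with a pseudocount of 1 CPM where levels are on a log2 scale.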

Additional observations from a re-analysis of the deposited data

Results flagged for a closer look

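Each of these results is a response to BMS-986158 that differed between times or lines by a test of the difference itself (edgeR, adjusted over all genes tested), given as a log2 difference. In A673 the response was higher at 20 than at 3 days for NT5E (5.11), L1CAM (3.97), CD44 (3.93), ENG (2.28) and ALCAM (0.95), and in CHLA10 that of ALCAM was lower at 20 days (-0.74). In A673 against CHLA10 at 3 days, ALCAM (1.06) and CD24 (2.36) were higher and NCAM1 (-2.42) lower. CD24 was at 3.26 in this comparison without replicate 3 of A673 vehicle. In TC32 against CHLA10 at 3 days, ALCAM (1.31) was higher and THY1 (-1.37), NCAM1 (-3.19) and CD99 (-0.88) lower. In TC32 against A673 at 3 days, CD44 (-2.89), THY1 (-0.97), MCAM (-2.35), CD24 (-6.69) and CD99 (-0.75) were lower. CD24 was at -7.59 there without replicate 3 of A673 vehicle. In A673 against CHLA10 at 20 days, NT5E (5.50), L1CAM (5.44), ALCAM (2.74), MCAM (2.38) and ENG (1.55) were higher and NCAM1 (-2.04) and THY1 (-1.46) lower.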

How the results depend on the processing

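Libraries may be technical repeats, each line is 1 culture history, and CHLA10 differs from the others in medium as well. Low counts limit NT5E, L1CAM and CD24 in TC32 and CD44 in CHLA10, where the depth cannot show small changes. Leaving out the 50 most abundant genes reversed no antigen, and neither did fitting only the lines compared, which gave no value for NT5E, L1CAM and CD24 in TC32 at 3 days. Where a value or call changed, the cause was not tested.

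Without the 4 most distant libraries, 7, 5 and 7 of the 10 antigens were called at 3 days in CHLA10, A673 and TC32, beside 40.5%, 45.3% and 53.8% of all genes. For 20 against 3 days it was 3 and 8 in CHLA10 and A673 (18.5% and 25.4%), for A673 against CHLA10, TC32 against CHLA10 and TC32 against A673 at 3 days 5, 7 and 8 (27.5%, 27.4% and 34.4%), and for vehicle over time in CHLA10 and A673 7 and 5 (29.1% and 33.7%). In TC32 at 3 days DESeq2 called 6 (47.2%) and the fit of TC32 alone 5 (55.7%). With no filter on low counts 0 were called for CHLA10 20 against 3 days (2.74%), 3 for TC32 against A673 (12.9%) and 1 for CHLA10 vehicle (7.61%). DESeq2 called 1 for A673 vehicle (10.6%).

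Some values changed sign, and not all of them were near 0 in the main fit, as for CD44 in CHLA10 vehicle. In A673 at 3 days NT5E was -0.01 with DESeq2 and -0.23 without the 4 libraries, and CD99 was -0.01 with RLE, -0.02 with library size only, -0.01 with DESeq2 and -0.02 without the 4 libraries. In TC32 ALCAM was 0.00 with no filter and NCAM1 0.00 with DESeq2. CD99 with library size only was -0.04 in A673 at 20 days and -0.02 for A673 20 against 3 days. ENG for TC32 against A673 was -0.04 with limma-voom and -0.50 without the 4 libraries. The fit without the 4 libraries also gave 0.12 for ENG in CHLA10 at 20 days, -0.34 for L1CAM and -0.01 for NCAM1 for CHLA10 20 against 3 days, 0.13 for ENG for A673 against CHLA10 at 3 days, -0.13 for CD44 in CHLA10 vehicle, -0.01 for NT5E and 0.08 for NCAM1 in A673 vehicle, and -0.03 for ENG in A673 against CHLA10 vehicle.

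With the replicate number as a block, ENG for TC32 against A673 was -0.07, and beside CD99 in CHLA10 at 20 days (0.28) no other call of that paired comparison changed. Elsewhere the libraries share only a number. There the block called L1CAM in CHLA10 at 3 days (-1.32, adjusted p = 0.0442), ENG in TC32 (adjusted p = 0.0344) and THY1 in A673 at 20 days (-0.53, adjusted p = 0.0467), and 3 differences between responses of MCAM. The difference of CD44 between A673 and CHLA10 at 20 days, 1 arm of which is paired, was also called (3.03). It was not run for vehicle and line comparisons.

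Leaving out 1 library gave 3 to 5 antigens called in CHLA10 at 20 days (25.0% to 32.8% of all genes), 0 to 1 for CHLA10 20 against 3 days (1.68% to 11.5%), 1 to 1 for CHLA10 vehicle (7.07% to 17%) and 0 to 1 for A673 vehicle (0.0702% to 21.9%). The ranges that crossed 0 were, at 3 days, CD44 in CHLA10 -0.12 to 1.15, NT5E in A673 -0.28 to 0.45, CD99 in A673 -0.05 to 0.09, and in TC32 L1CAM -0.30 to 0.90, ALCAM -0.16 to 0.08 and NCAM1 -0.30 to 0.33. In CHLA10 at 20 days they were NT5E -0.78 to 0.25 and ENG -0.33 to 0.34. For 20 against 3 days they were CD44 -0.16 to 2.06, L1CAM -0.61 to 1.07 and NCAM1 -0.33 to 0.39 in CHLA10, and CD99 -0.04 to 0.15 in A673. Between lines at 3 days they were CD44 -0.52 to 0.75 and ENG -0.59 to 0.09 for A673 against CHLA10, and L1CAM -0.94 to 0.26 and ENG -0.45 to 0.24 for TC32 against A673. In vehicle over time they were CD44 -0.11 to 1.83, THY1 -0.39 to 0.01 and MCAM -0.53 to 0.12 in CHLA10, and NT5E -0.14 to 0.66, ENG -0.01 to 0.68, THY1 -0.03 to 0.14 and NCAM1 -0.19 to 0.04 in A673.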
